A study of Saccharomyces cerevisiae with 36 samples.

Results

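HSP26, HSP42, HSP104, BTN2, CUR1, SIS1, YDJ1, APJ1 and FES1 encode the yeast proteins that bind, sort, dissolve or hand on misfolded protein. These 9 genes were picked by the open reading frame names YBR072W, YDR171W, YLL026W, YGR142W, YPR158W, YNL007C, YNL064C, YNL077W and YBR101C, and all 9 were found among the 6295 open reading frames of the arrays. The choice went by gene name and not by a measured value, but it was made with earlier results of these data known. HSP42 and FES1, 2 of the 9, had a value on all 36 arrays, and HSP26 lacked the most values, on 5 arrays.

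When proteins lose their fold in Saccharomyces cerevisiae, the small heat shock proteins Hsp26 and Hsp42 bind them and hold them in a form that can be rescued. Btn2 and Cur1 steer misfolded protein and the J-domain protein Sis1 to particular deposits in the cell. Hsp104 threads protein out of aggregates together with Hsp70, J-domain proteins such as Sis1, Ydj1 and Apj1 deliver clients to Hsp70, and Fes1 makes Hsp70 release its nucleotide and its client. Many of these genes are known targets of the heat shock factor Hsf1, and some, HSP26 and HSP104 among them, also of the general stress factors Msn2 and Msn4. Ethanol, like heat, disturbs protein folding and membranes.

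The cultures were S. cerevisiae strains in YPD, a rich glucose medium, kept at 30 °C in log phase for at least 8 doublings. The ethanol arrays set cells 30 min after ethanol was added to 5% by volume against log-phase cells of the same strain, on 3 arrays each for DBY8268, a laboratory strain, for the wild strains M22 and YPS163, for YPS163 MATa, which is YPS163 of mating type a, and for YPS163 MATa hap1D and YPS163 MATa msn2D, which by their genotype labels carry the MATa background and by their names lack HAP1 or MSN2. The msn2D titles leave out MATa. They are called hap1D and msn2D from here on. Log-phase arrays without ethanol, 3 per comparison, set DBY8268 against M22, DBY8268 against YPS163, and YPS163 MATa against hap1D. DBY8268, M22 and YPS163 were also followed at 15, 45 and 60 min, with 1 array each, and the first 30 min array of each completes this time course. The series calls the groups of 3 biological triplicates, and each mutant is 1 genotype whose number of independent clones is not given in the sources used here.

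Values are log2 ratios. Ethanol ratios are read as ethanol over log phase, and log-phase ratios as the wild strain over DBY8268 or hap1D over YPS163 MATa, so a value of 1 is a 2-fold excess. That reading, like the base of the logarithm, is likely rather than stated. Arrays carried 4981 to 6093 values, with medians from -0.08 to 0.17. Ethanol array 3 of YPS163 MATa was left out because its values sit 1 row out of place in the table, so that YPS163 MATa has n = 2 in ethanol. The deleted genes were checked first. MSN2 had no value on any of the 3 msn2D arrays, and HAP1 had none on the 3 hap1D ethanol arrays. In log phase HAP1 lay at -3.9 and -3.04 on the 2 hap1D arrays that measured it, but the sign of those arrays was set by this gene, so it checks only the size. An error beside a group mean is the SD over its arrays, and an error beside a difference of groups is the standard error (SE) of the limma fit over all groups. A gene was called where limma's p, adjusted by Benjamini-Hochberg over all genes tested in that comparison, was under 0.05. The p-values measure the spread between these arrays, and a ratio does not say how abundant a transcript is.

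The first question is how each gene answered 30 min of ethanol in each strain. In DBY8268 all 9 genes rose, where 28.6% of the 5632 genes tested were called higher and 31.1% lower. In M22, 7 rose and 1 fell, against backgrounds of 32.2% higher and 29.8% lower. In YPS163, 6 rose and 1 fell, against 30.5% and 30%. Of the 7 genes that could be tested in YPS163 MATa, 4 rose and 1 fell, with 24.5% and 27.7% of all genes called. In hap1D 7 rose and 1 fell (26.8% and 27.7% of all genes), and in msn2D 5 rose and none fell (21% and 22.4%).

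**Figure D1:**
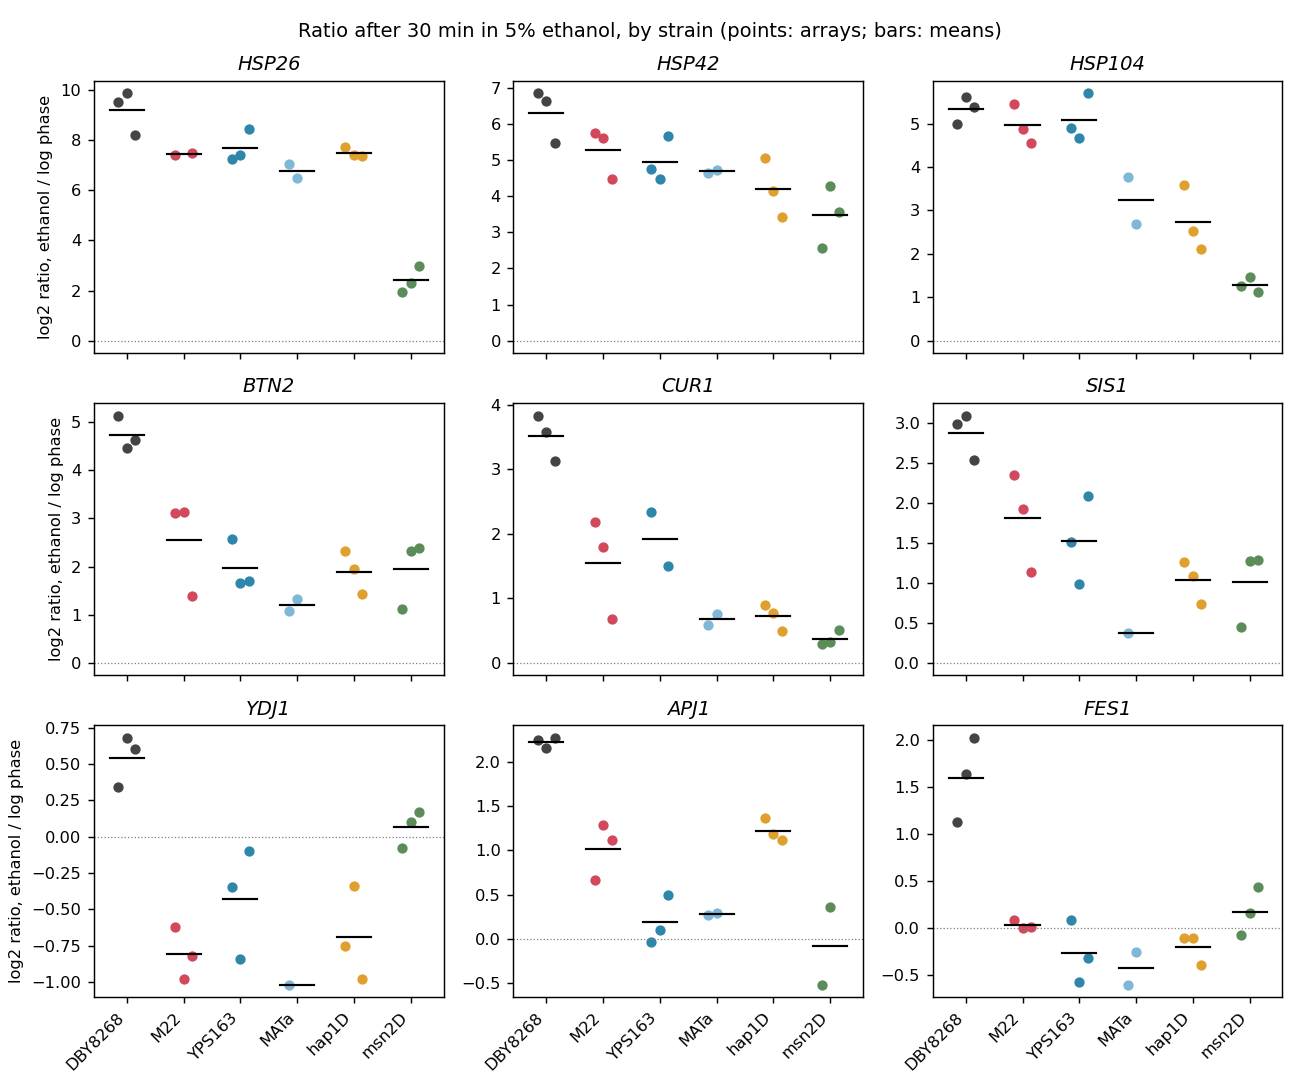
Log2 ratio of ethanol over log phase at 30 min for each of the 9 genes in the 6 strains, 1 point per array, with a bar at the group mean. HSP26 has its highest mean in DBY8268, where it lies between 8.23 and 9.88, and its lowest in msn2D, between 1.94 and 2.97, while YDJ1 stays within about 1 of 0 in every strain.

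HSP26, the small heat shock protein that is stored as an inactive oligomer until stress, had the highest ratio of all 5632 genes tested in DBY8268. Its 3 arrays there read 9.53, 9.88 and 8.23, a mean of 9.21 ± 0.87 (SD, n = 3), which is 594-fold. It read 7.24, 7.40 and 8.47 in YPS163, where it ranked second of 5324 genes, and 7.41 and 7.48 in M22, where array 2 has no value and it ranked 3 of 5501. The log-phase signal in the denominator of these ratios is not known here, since no intensities were used. YPS163 MATa read 7.06 and 6.48, and hap1D 7.73, 7.41 and 7.38. In msn2D the arrays read 1.94, 2.32 and 2.97, a mean of 2.41 ± 0.52 (SD, n = 3) or 5.31-fold, below every array of the other 5 strains. The gene still rose there (adjusted p = 2.4e-06, limma), at rank 67 of 6138.

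HSP42, the small heat shock protein that is active in unstressed cells too, read 6.86, 6.64 and 5.48 in DBY8268, 5.76, 5.61 and 4.47 in M22 and 4.75, 4.47 and 5.67 in YPS163. The 3 strains overlapped. It read 4.65 and 4.74 in YPS163 MATa, 5.06, 4.15 and 3.43 in hap1D, and 2.57, 4.29 and 3.58 in msn2D. Unlike HSP26, HSP42 in msn2D overlapped the hap1D arrays, but all 3 msn2D arrays lay below both YPS163 MATa arrays. The latter held for 1079 of the 5394 genes tested between those 2 strains. In msn2D the HSP42 mean of 3.48 ± 0.86 (SD, n = 3) stood at rank 11 of the 6138 genes tested. HSP42 was called in each of the 6 strains, with adjusted p between 2.4e-12 in DBY8268 and 3.6e-08 in msn2D (limma).

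HSP104, the hexameric disaggregase, was nearly level across DBY8268, M22 and YPS163. Its arrays read 4.99, 5.62 and 5.39 in DBY8268, 5.46, 4.89 and 4.55 in M22, and 4.90, 4.66 and 5.70 in YPS163, with means of 5.33 ± 0.32, 4.97 ± 0.46 and 5.09 ± 0.54 (SD, n = 3 each). YPS163 MATa and its mutants lay lower on every array. YPS163 MATa read 3.78 and 2.68, hap1D read 3.59, 2.52 and 2.12, and msn2D read 1.26, 1.46 and 1.11. All 3 msn2D arrays were below every array of the other strains, and the gene rose in all 6 strains.

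BTN2 and CUR1, the related sorting factors, answered ethanol most in DBY8268. BTN2 read 5.14, 4.46 and 4.63 there, a mean of 4.74 ± 0.35 (SD, n = 3) or 26.8-fold. It read 3.12, 3.14 and 1.38 in M22 and 2.57, 1.65 and 1.69 in YPS163, means of 5.84-fold and 3.92-fold. No array of either wild strain reached the lowest DBY8268 array. In YPS163 MATa the values were 1.07 and 1.33, in hap1D 2.33, 1.94 and 1.42, and in msn2D 1.11, 2.33 and 2.38. BTN2 rose in all 6 strains, although in YPS163 MATa the call was lost without array 1 (1.33, adjusted p = 0.056, limma) and without array 2 (1.07, adjusted p = 0.11).

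CUR1, like BTN2, was highest in DBY8268. It read 3.83, 3.57 and 3.13 in DBY8268, 2.18, 1.80 and 0.67 in M22, and 2.33 and 1.5 on the 2 YPS163 arrays with a value. Both wild strains lay wholly below DBY8268. The means of YPS163 MATa and its mutants were lower again, with 0.59 and 0.76 in YPS163 MATa, 0.89, 0.77 and 0.49 in hap1D, and 0.29, 0.32 and 0.50 in msn2D. It was called in hap1D (mean 0.72, adjusted p = 0.021, limma), a call lost without array 1 (0.63, adjusted p = 0.11) and without array 2 (0.69, adjusted p = 0.076). It was not called in YPS163 MATa (0.68, adjusted p = 0.071) or in msn2D (0.37, adjusted p = 0.26).

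The 3 J-domain proteins differed from each other in size and in sign. SIS1, the essential class B member that works with Hsp70 and Hsp104 on aggregates, rose in the 5 strains where it was tested. Its arrays read 2.99, 3.09 and 2.54 in DBY8268, 2.35, 1.92 and 1.14 in M22, and 1.51, 0.98 and 2.09 in YPS163. DBY8268 was above both wild strains on every array. SIS1 read 1.26, 1.09 and 0.74 in hap1D and 0.45, 1.27 and 1.29 in msn2D, and its single value in YPS163 MATa was 0.37.

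APJ1, a less abundant J-domain protein linked to the resolution of misfolded protein deposits in the nucleus, rose in 3 of the 6 strains. Its DBY8268 arrays were close together at 2.24, 2.15 and 2.27. They read 0.66, 1.28 and 1.11 in M22, where it rose, and -0.04, 0.10 and 0.50 in YPS163, where the mean of 0.19 ± 0.28 (SD, n = 3) was not called (adjusted p = 0.34, limma). Each of these 3 strains was apart from the other 2 on every array. YPS163 MATa, at 0.27 and 0.29, was like YPS163 in size and not called either. The hap1D arrays, at 1.36, 1.18 and 1.12, were above both and called, whereas msn2D had only the 2 values -0.52 and 0.36.

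YDJ1, the abundant class A J-domain protein of the cytosol, was called in opposite directions in different strains, as FES1 was on weaker evidence. It read 0.34, 0.68 and 0.60 in DBY8268, a mean of 0.54 ± 0.18 (SD, n = 3) that was called higher (adjusted p = 0.0018, limma). In M22 it read -0.62, -0.98 and -0.82, a mean of -0.81 ± 0.18, and was called lower (adjusted p = 2.9e-05). YPS163 read -0.35, -0.84 and -0.10 and was called lower (mean -0.43, adjusted p = 0.0090), a call lost without array 2 (-0.23, adjusted p = 0.20). It fell in hap1D, at -0.75, -0.34 and -0.98 (adjusted p = 0.00022), read -1.02 on the single YPS163 MATa array with a value, and was near 0 in msn2D, at -0.08, 0.10 and 0.17.

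FES1, the nucleotide exchange factor of cytosolic Hsp70, rose in 1 strain. DBY8268 read 1.13, 1.64 and 2.02, a mean of 1.60 ± 0.45 (SD, n = 3) or 3.02-fold (adjusted p = 5.1e-09, limma). M22 read 0.09, 0.00 and 0.01, a mean of 0.03 ± 0.05 that was not called (adjusted p = 0.85). YPS163 read 0.09, -0.57 and -0.32 and was not called with all arrays (adjusted p = 0.11), but was called lower without array 1 (-0.45, adjusted p = 0.022). Every array of the other strains was below the lowest DBY8268 array. YPS163 MATa, at -0.60 and -0.25, was called lower (-0.43, adjusted p = 0.042), a call lost without array 1 (-0.25, adjusted p = 0.47) or array 2 (-0.6, adjusted p = 0.054), and neither hap1D nor msn2D was called.

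The second question is when the genes were high. The time course has 1 array per strain and time, so its values carry no error. In each of DBY8268, M22 and YPS163, 8 of the 9 genes were highest at 15 min, the first time taken, among the times with a value, and HSP26 was the exception. Among genes whose mean over the 4 times was at least 2, the share that was highest at 15 min was 18.5% of 151 in DBY8268, 24.2% of 219 in M22 and 21.8% of 165 in YPS163. YDJ1 and FES1 lay under that mean in every strain, as did APJ1 in M22 and YPS163 and SIS1 in YPS163. HSP26 and HSP104 lacked a value in YPS163. Such a set, which favours a lasting rise, is not matched to the 9 genes, and no share over all genes was taken.

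**Figure D2:**
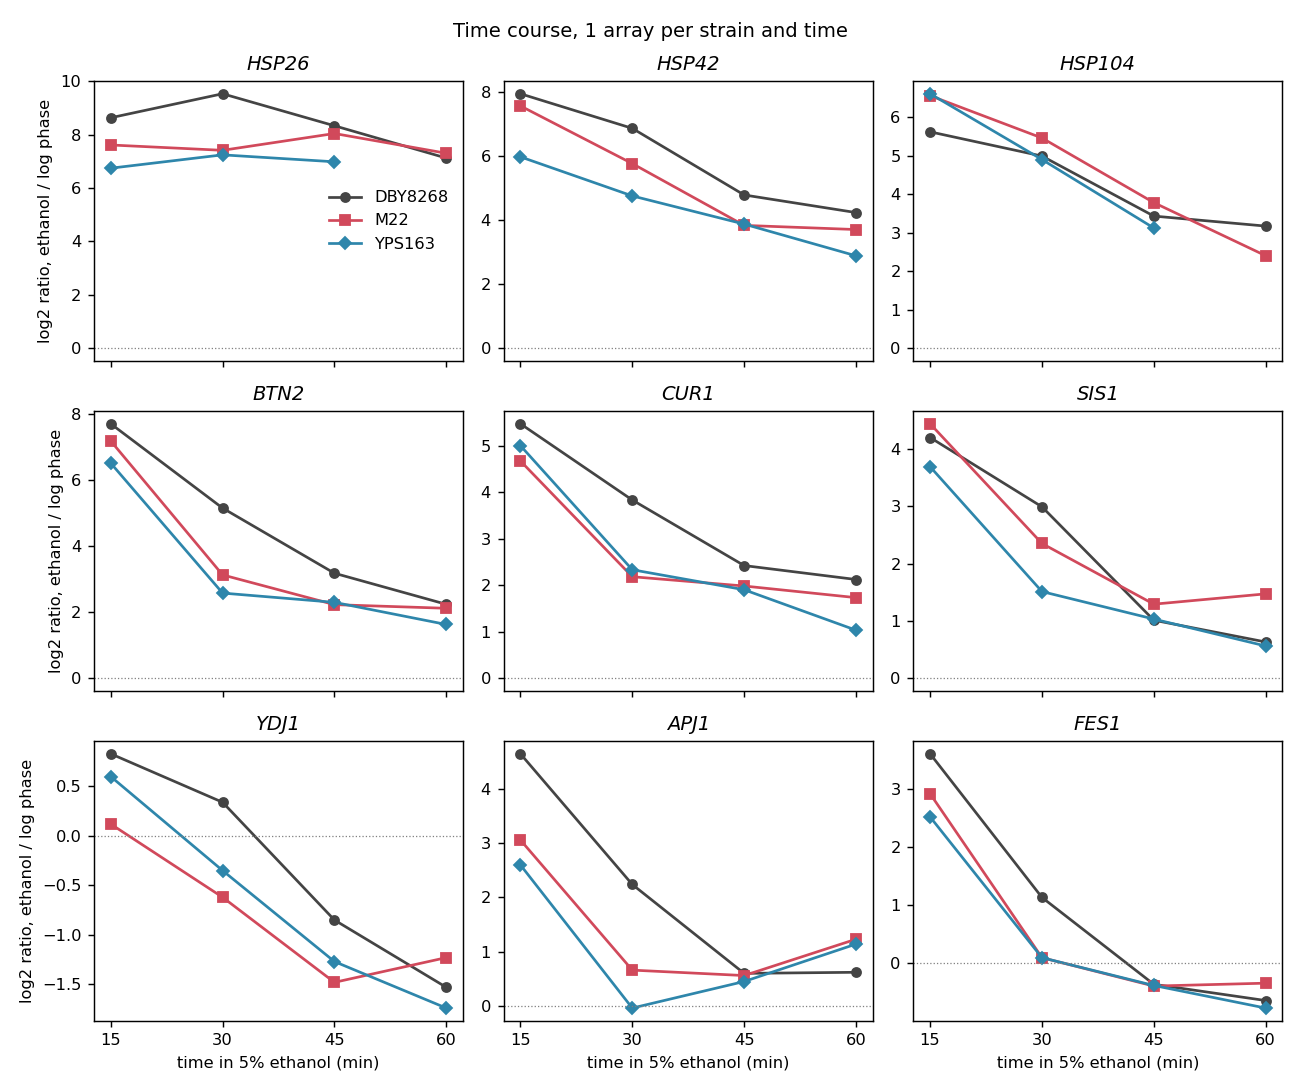
Log2 ratio of ethanol over log phase at 15, 30, 45 and 60 min for the 9 genes, 1 line per strain and 1 array per point. HSP26 stays between 6.74 and 9.53 over the times measured, whereas the 8 other genes start at their highest value and come down.

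BTN2 had the steepest descent. In DBY8268 it read 7.69, 5.14, 3.17 and 2.23 at 15, 30, 45 and 60 min. M22 read 7.17, 3.12, 2.22 and 2.11, and YPS163 read 6.50, 2.57, 2.29 and 1.62. At 15 min the strains were within 1.19 of each other. Between 15 and 30 min BTN2 came down by 4.05 in M22 and 3.93 in YPS163, against 2.55 in DBY8268. By 60 min M22 was 0.12 below DBY8268.

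FES1 and APJ1, which were near 0 in some strains at 30 min, were not near 0 at 15 min. FES1 read 3.61 in DBY8268, 2.92 in M22 and 2.52 in YPS163 at 15 min, and 1.13, 0.09 and 0.09 at 30 min. All 3 strains were below 0 at 45 and 60 min. APJ1 read 4.65, 3.06 and 2.60 at 15 min in the same order of strains, and then 2.24, 0.66 and -0.04. It came back to 1.23 in M22 and 1.14 in YPS163 at 60 min, when DBY8268 read 0.62.

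CUR1 read 5.47 in DBY8268, 4.67 in M22 and 5.00 in YPS163 at 15 min and 2.12, 1.73 and 1.03 at 60 min. SIS1 came down from 4.20 to 0.63 in DBY8268, from 4.44 to 1.47 in M22 and from 3.69 to 0.56 in YPS163. YDJ1 was above 0 in all 3 strains at 15 min, at 0.83, 0.12 and 0.60, and below 0 in all 3 at 60 min, at -1.53, -1.23 and -1.74. Between those times, at 30 min, only DBY8268 was still above 0.

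HSP42 read 7.94, 7.56 and 5.97 at 15 min in DBY8268, M22 and YPS163, and 4.23, 3.70 and 2.88 at 60 min. HSP104 was higher in both wild strains than in DBY8268 at 15 min, at 6.56 in M22 and 6.61 in YPS163 against 5.62. HSP26 was highest at 30 min in DBY8268 (9.53) and YPS163 (7.24) and at 45 min in M22 (8.04), and YPS163 has no value at 60 min for HSP26 or HSP104. The median change of the genes from 15 to 60 min was -3.57 in DBY8268 (9 genes), -2.97 in M22 (9 genes) and -3.13 in YPS163 (7 genes). Over the genes with a mean of at least 2, a set that several of the 9 genes do not meet, it was 0.05, -0.31 and 0.53.

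The median gap between M22 and DBY8268 over the 9 genes was -0.69 at 15 min, -1.10 at 30 min, -0.29 at 45 min and 0.18 at 60 min. For YPS163 it was -1.09, -1.5, -0.42 and -0.21, the last over 7 genes. Both gaps were largest at 30 min, the time at which all replicated comparisons were made.

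The third question is whether the wild strains answered ethanol differently from DBY8268, which is a difference of responses. The comparisons with M22 and with YPS163 use the same 3 DBY8268 arrays and are not independent. In M22, 7 of the 9 responses were called lower than in DBY8268 and none higher, where 2.88% of the 5443 genes tested were called lower and 9.42% higher. In YPS163, 8 of 9 were lower and none higher, where 5.58% of 5300 were lower and 10.5% higher. The arrays did not overlap for 7 of 9 genes in M22 (7.9% of all genes in that direction) and for 6 of 9 in YPS163 (10.7%).

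**Figure D3:**
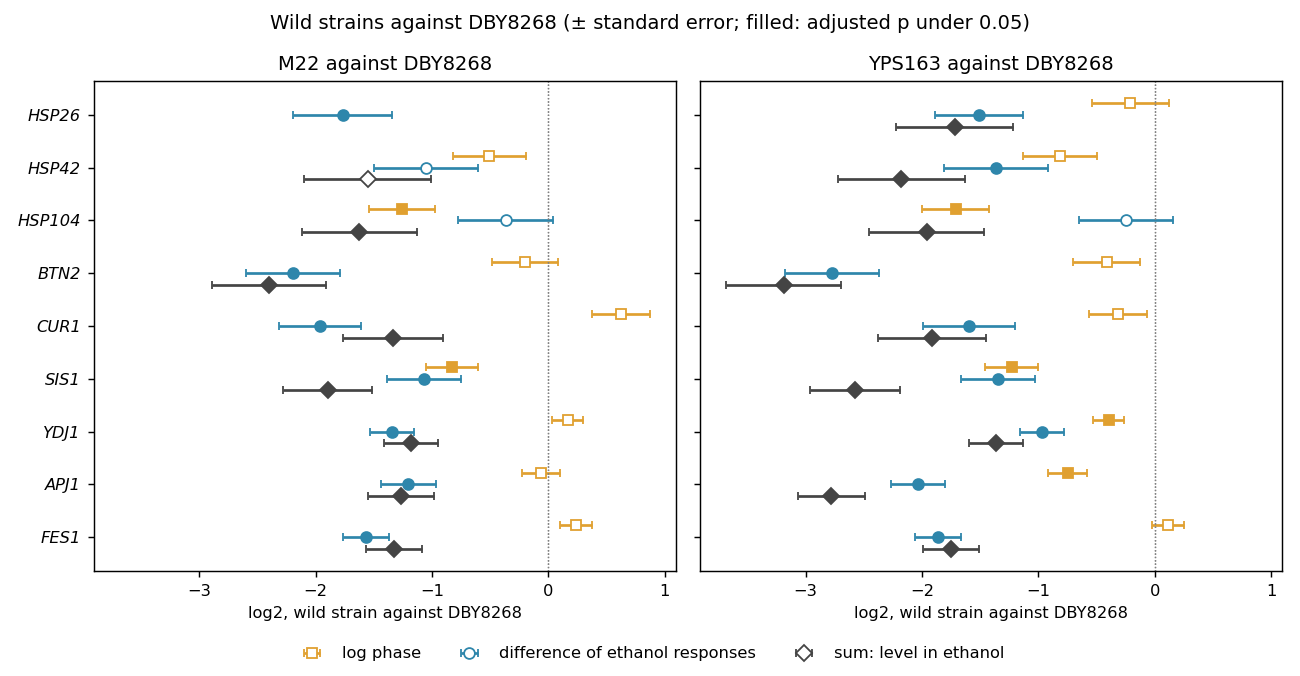
Differences from DBY8268 for the 9 genes in M22 and YPS163 on the log2 scale, with bars of 1 SE of the limma fit: the difference of the 30 min responses, the log-phase ratio and the sum of both. BTN2 has the lowest response difference in both strains (-2.20 in M22 and -2.77 in YPS163), while HSP104 stands near 0 in response and, as the ratios are read here, lowest in log phase (-1.26 and -1.71).

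BTN2 had the largest difference of the 9. It was -2.20 ± 0.41 (SE) in M22 (adjusted p = 0.0011, limma), the 9th lowest of all genes tested, and -2.77 ± 0.40 in YPS163 (adjusted p = 7.6e-05), the 10th lowest. CUR1 differed by -1.96 ± 0.35 in M22 (adjusted p = 0.00086) and by -1.60 ± 0.39 in YPS163 (adjusted p = 0.0086). The CUR1 call in YPS163 rests on 2 YPS163 arrays. It was lost in the fit of the 3 strains' ethanol arrays alone without the array number as a block (adjusted p = 0.076, limma). With the block on those arrays it was kept (-1.52, adjusted p = 0.011). Scaling the arrays to 1 spread lost it too (-1.23, adjusted p = 0.11). Both sorting factors were called lower in response in the wild strains at 30 min, with CUR1 in YPS163 less certain than BTN2.

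FES1 differed by -1.56 ± 0.20 (SE) in M22 (adjusted p = 1.6e-05, limma) and -1.86 ± 0.20 in YPS163 (adjusted p = 1.1e-06). YDJ1 differed by -1.35 ± 0.19 (adjusted p = 6.5e-05) and -0.97 ± 0.19 (adjusted p = 0.0014). APJ1 differed by -1.20 ± 0.24 (adjusted p = 0.0020) and -2.03 ± 0.23 (adjusted p = 6.0e-06). These partners of Hsp70 were lower in both wild strains on every array. The APJ1 call in M22 was lost with arrays scaled to 1 spread (-0.91, adjusted p = 0.055, limma). The YDJ1 call in YPS163 was lost with quantile normalisation (-0.77, adjusted p = 0.071) and with only the groups compared (-0.97, adjusted p = 0.058).

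SIS1 differed by -1.07 ± 0.32 (SE) in M22 (adjusted p = 0.031, limma) and by -1.35 ± 0.31 in YPS163 (adjusted p = 0.0059). The M22 call was lost in the fit of the 3 strains' ethanol arrays alone, without the array number as a block (adjusted p = 0.14) and with it (0.10), and was kept with the block over all 26 arrays (0.039). That wider block assumes 1 effect per array number in all groups, which the deviations of the other groups did not show. The M22 call was also lost without DBY8268 array 1 (adjusted p = 0.094), DBY8268 array 2 (0.11), M22 array 2 (0.056) or M22 array 3 (0.16), with differences from -1.13 to -0.74. In the fit of the 3 strains' ethanol arrays alone, the YPS163 call was lost without the block (adjusted p = 0.054, limma) and kept with it (0.045).

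The small heat shock proteins had large but less certain differences. HSP26 differed by -1.77 ± 0.42 (SE) in M22 (adjusted p = 0.011, limma) and -1.51 ± 0.38 in YPS163 (adjusted p = 0.012). Both calls were lost when only the ethanol arrays of DBY8268, M22 and YPS163 were fitted, without the array number as a block (adjusted p = 0.10 and 0.092) as well as with it (-1.68, adjusted p = 0.13, and -1.51, adjusted p = 0.092). The block over all 26 arrays kept both (adjusted p = 0.018 and 0.019). The M22 call was also lost without DBY8268 array 2 (-1.44, adjusted p = 0.055), and the YPS163 call without DBY8268 array 1 (-1.35, adjusted p = 0.051) or array 2 (-1.18, adjusted p = 0.069).

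HSP42 differed by -1.36 ± 0.45 (SE) in YPS163 (adjusted p = 0.041, limma). The call was lost in the fit of the 3 strains' ethanol arrays alone, without the block (adjusted p = 0.12) and with it (0.092), and was kept with the block over all 26 arrays (0.041). It was lost as well without DBY8268 array 1 (-1.10, adjusted p = 0.17), DBY8268 array 2 (-1.21, 0.14), YPS163 array 1 (-1.26, 0.097) or YPS163 array 2 (-1.12, 0.14). Its difference in M22 was -1.05 ± 0.45 (adjusted p = 0.14) and was called without DBY8268 array 3 (-1.47, adjusted p = 0.036). HSP104 was not called in either strain, at -0.37 ± 0.41 in M22 (adjusted p = 0.63) and -0.25 ± 0.40 in YPS163 (adjusted p = 0.74).

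Between the wild strains, 1 of the 9 responses differed, with 4.17% of 5254 genes called lower in YPS163 than in M22 and 2.15% higher. That gene was APJ1, at -0.83 ± 0.23 (SE, adjusted p = 0.041, limma), and the call was lost on leaving out any of 11 of the 26 arrays, among them arrays of other groups. The adjusted p rose to 0.17 without M22 array 2 and to 0.13 without YPS163 array 1. The other 8 differences ran from -0.58 for BTN2 to 0.38 for YDJ1.

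The log-phase arrays show what the strains had before ethanol. As the ratios are read here, HSP104 was the lowest of the genes in both comparisons, and read the other way round it would be the highest. It read -1.90, -0.91 and -0.96 in M22 over DBY8268 (mean -1.26 ± 0.56, SD, n = 3, adjusted p = 0.0018, limma) and -2.52, -1.07 and -1.54 in YPS163 over DBY8268 (mean -1.71 ± 0.74, adjusted p = 0.00013). All 6 arrays were below 0.

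SIS1 was lower too, at -0.83 ± 0.12 (SD, n = 3) in M22 (adjusted p = 0.0072, limma) and -1.23 ± 0.49 in YPS163 (adjusted p = 0.00036). These were the 2 genes called of 8 tested in M22, where 18% of all genes were called lower and 12.4% higher, and both calls were lost without M22 log-phase array 1 (HSP104 -0.94, adjusted p = 0.051, and SIS1 -0.77, adjusted p = 0.054). In YPS163, 4 of 9 were called lower (14.3% of all genes, with 8.59% higher). The other 2 were APJ1, at -0.75 ± 0.48 (adjusted p = 0.0027), and YDJ1, at -0.39 ± 0.19 (adjusted p = 0.039), and neither was called without YPS163 log-phase array 1 (APJ1 -0.51, adjusted p = 0.080, and YDJ1 -0.35, adjusted p = 0.20). Without array 3, YDJ1 was not called either (-0.34, adjusted p = 0.19). With only that group in the fit none of the 4 was called, and HSP104, at the same -1.71, had an adjusted p of 0.099. BTN2 was not called, at -0.20 ± 0.16 in M22 (adjusted p = 0.63) and -0.41 ± 0.28 in YPS163 (adjusted p = 0.34), and FES1 read 0.24 ± 0.12 and 0.11 ± 0.06. CUR1 went the other way in M22, at 0.62 ± 0.10 (SD, adjusted p = 0.063, limma). It was called higher there in 9 of 35 alternative fits. In YPS163 CUR1 read -0.32 ± 0.83 and was not called.

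Adding the log-phase ratio to the difference of responses gives an indirect ratio of the strains in ethanol at 30 min, which no array measured directly. In YPS163 all 9 genes were called lower than in DBY8268 on this measure (7.45% of 5209 genes, with 7.83% higher), and in M22 7 of the 8 tested were (6.19% of 5056, with 7.34% higher). Some of these calls were fragile. In M22 the call of CUR1 (-1.34, adjusted p = 0.043, limma) was lost in 20 of 36 alternative fits and that of HSP104 in 8 of 36. In YPS163 the call of HSP26 was lost in 7 of 33. BTN2 was at -3.19 ± 0.49 (SE) in YPS163 (adjusted p = 0.00011, limma) and -2.40 ± 0.49 in M22 (adjusted p = 0.0020). APJ1 was at -2.78 ± 0.29 in YPS163 and SIS1 at -2.58 ± 0.38. HSP104, whose response did not differ, was at -1.96 ± 0.49 in YPS163 (adjusted p = 0.0094) and -1.62 ± 0.49 in M22 (adjusted p = 0.032), and its log-phase ratio makes up -1.71 and -1.26 of these sums.

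The indirect ratio needs the direction of the log-phase arrays, which is likely and not stated. The direction used is the reverse of the order of strains in those arrays' titles. Read the other way round, HSP104 would be at 1.46 in YPS163 (adjusted p = 0.036, limma) and 0.89 in M22 (adjusted p = 0.20), with the sign turned. SIS1 would be at -0.12 in YPS163 (adjusted p = 0.87) and -0.24 in M22 (adjusted p = 0.69), so its indirect difference rests almost wholly on that direction. YPS163 would then have 4 calls, HSP104 higher and BTN2 (-2.36), APJ1 (-1.29) and FES1 (-1.98) lower, and HSP26, HSP42, CUR1 and YDJ1 would no longer be called. M22 would have 5, all lower, in BTN2, CUR1, YDJ1, APJ1 and FES1. The differences of responses do not use those arrays for their estimates.

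The last question is how the responses differed within the YPS163 background. No log-phase array compared msn2D with YPS163 MATa, so a smaller rise in msn2D cannot be told apart from a different starting level. Against YPS163 MATa, 2 of the 7 genes tested responded less in msn2D and none more, where 4.38% of 5394 genes were called in each direction. HSP26 differed by -4.36 ± 0.42 (SE, adjusted p = 5.9e-06, limma), the 14th lowest of all genes. HSP104 differed by -1.95 ± 0.45 (adjusted p = 0.010), a call lost without YPS163 MATa array 1 (-1.40, adjusted p = 0.30) and with array 3 moved back into place (-1.39, adjusted p = 0.075). HSP26 stayed at -4.28 (adjusted p = 1.2e-06) with array 3 moved back, and was at -1.95 (adjusted p = 0.43) with that array as deposited.

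**Figure D4:**
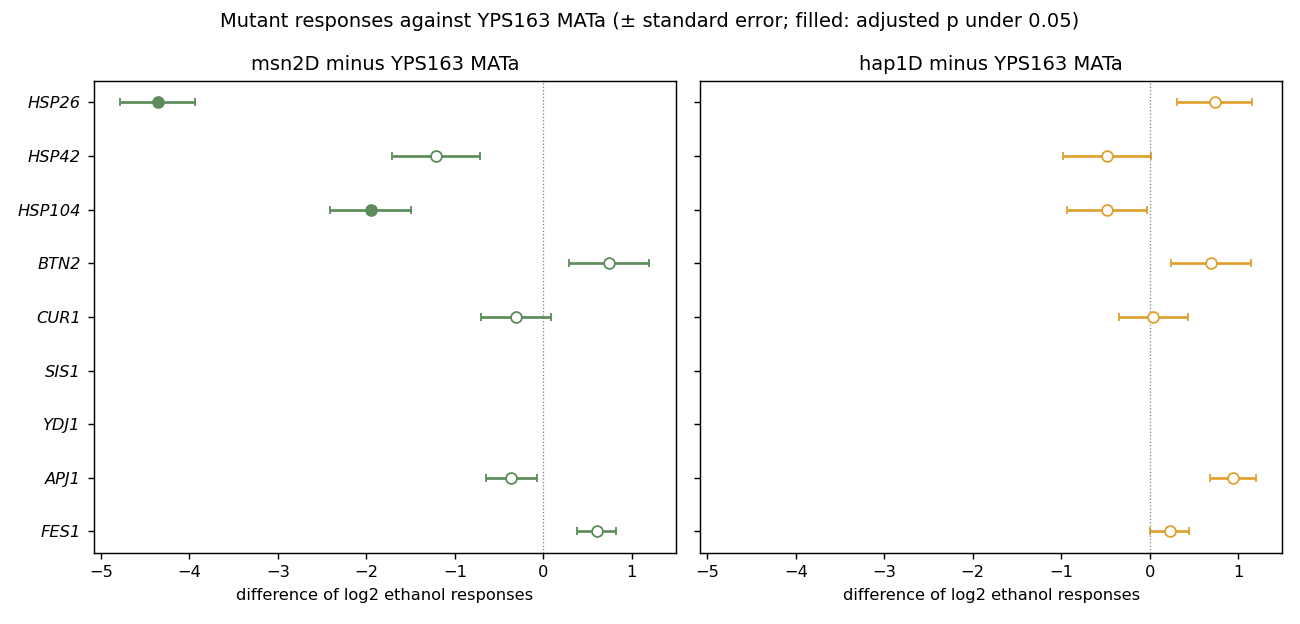
Differences of the 30 min ethanol responses of msn2D and hap1D from YPS163 MATa on the log2 scale, with bars of 1 SE of the limma fit. Filled points are called. HSP26 (-4.36) and HSP104 (-1.95) are called lower in msn2D, and no gene is called in hap1D. SIS1 and YDJ1 are not drawn, as they have 1 value each in YPS163 MATa.

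The remaining genes were not called between msn2D and YPS163 MATa, but HSP42 and FES1 had an unadjusted p under 0.05 (limma). The msn2D arrays lay wholly below those of YPS163 MATa for 4 of 7 genes, HSP26, HSP42, HSP104 and CUR1. They lay wholly above for 1, FES1. Of all 5394 genes tested, 1079 lay wholly below and 1639 wholly above. HSP42 differed by -1.22 ± 0.50 (SE, adjusted p = 0.14, limma), APJ1 by -0.36 ± 0.29 (adjusted p = 0.49) and CUR1 by -0.31 ± 0.39 (adjusted p = 0.70). BTN2, at 0.74 ± 0.45 (adjusted p = 0.35), and FES1, at 0.60 ± 0.22 (adjusted p = 0.094), had the opposite sign.

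In hap1D, which lacks a haem-responsive activator of respiratory and sterol genes, 0 of the 7 testable responses were called against YPS163 MATa, and 0.0926% of 5397 genes were called in all. At an unadjusted p under 0.05 it was 1 gene, APJ1, with the largest difference, 0.94 ± 0.26 (SE, adjusted p = 0.30, limma). All 3 hap1D arrays of APJ1 lay above both YPS163 MATa arrays, as they did for HSP26 and BTN2. The hap1D arrays lay wholly above in 853 of the 5397 genes tested. In log phase 0 of 9 genes were called by limma (2.99% of 6059 genes), and 0 had an unadjusted p under 0.05, with means from 0.03 for FES1 to 0.36 for HSP42. The response differences of HSP104 and HSP26 were -0.49 ± 0.45 and 0.74 ± 0.42. In the indirect ratio in ethanol, 0 of 7 were called by limma (0.243% of 5357 genes), and 1, APJ1, had an unadjusted p under 0.05.

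YPS163 MATa itself was compared with YPS163. By limma 0 of 7 genes were called, with 0.719% of 4867 genes called in all, and 3 (HSP104, CUR1 and HSP26) had an unadjusted p under 0.05. HSP104 was closest, at -1.86 ± 0.45 (SE, adjusted p = 0.060, limma). It was called without YPS163 MATa array 1 (-2.41, adjusted p = 0.044) and with array 3 moved back into place (-2.42, adjusted p = 0.0073). Leaving out any of 4 arrays from other groups also took its adjusted p below 0.05, with the same difference. CUR1 differed by -1.24 ± 0.43 (adjusted p = 0.32).

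Other genes of protein quality control were read from 4 lists that were chosen with earlier results of these data known. In DBY8268, 8 of the 9 genes listed as Hsp70, Hsp110 or their partners were tested, of which 5 rose and 3 fell, with a median of 1.24 against 0.02 over all genes tested. SSA4, a stress-induced cytosolic Hsp70, was highest at 6.77 ± 0.39 (SE, adjusted p = 1.4e-11, limma), and SSB1, an Hsp70 that binds nascent chains at the ribosome, was lowest at -2.32 ± 0.21 (adjusted p = 1.8e-08). Of 11 other J-domain proteins 3 rose and 5 fell, with a median of -0.29, from MDJ1 of the mitochondrial matrix at 2.62 to JJJ3 at -1.88. Among 9 tested genes for the degradation of misfolded proteins 6 rose and none fell, with UBI4, the polyubiquitin gene, at 2.85 and RSP5, a ubiquitin ligase, not called at -0.37. The regulators HSF1, MSN4 and MSN2 rose by 0.80, 0.70 and 0.51.

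The same lists were read between strains, beside 2.88% of all genes called lower and 9.42% higher in M22 than in DBY8268, and 5.58% and 10.5% in YPS163. Between M22 and DBY8268, 0 of 8 Hsp70 genes were called in response by limma (3 at an unadjusted p under 0.05), with a median of -0.32 against 0.09 over all genes. Of the other J-domain proteins 1 of 11 was called, MDJ1 at -1.08 ± 0.24 (SE, adjusted p = 0.0050, limma). Of the degradation genes 2 of 9 were called, both higher, CDC48 and RSP5 at 0.82 and 0.87. Between YPS163 and DBY8268, 2 of 8 Hsp70 genes were called, SSA3 lower at -0.92 and SSB1 higher at 1.02. Of the J-domain proteins 2 of 11 were called, both lower, and of the degradation genes 2 of 9 were called higher and 1 lower. Of the 3 regulators 0 were called in either comparison, and 0 had an unadjusted p under 0.05. Between msn2D and YPS163 MATa, SSE2, an Hsp110 that acts on Hsp70 as Fes1 does, was the 1 of 8 Hsp70 genes called, at -2.65 ± 0.52 (adjusted p = 0.0034).

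Likeness was measured as Pearson's r over the 26 ethanol arrays of all strains and times, as a description, since arrays of 1 strain share their background and the times share a course. Among the 9 genes, the highest correlations were between BTN2 and CUR1 (0.95, 25 arrays), BTN2 and SIS1 (0.94) and BTN2 and FES1 (0.94). HSP26 stood apart, at 0.36 with BTN2, 0.22 with FES1 and -0.02 with YDJ1. Outside the 9, HSP26 was most like RTC3 (0.92) and SSE2 (0.91), HSP42 was most like HSP78 (0.91) and YBR099C (0.87), and HSP104 was most like YNL303W and MED11 (0.86 each). OPI10 was the first for BTN2 (0.94), CUR1 (0.93) and SIS1 (0.92), followed by ROQ1 for BTN2 (0.94), HSP78 for CUR1 (0.92) and RIE1 for SIS1 (0.89). YDJ1 was most like HSP82 and TAH11 (0.89 each). APJ1 was most like RIE1 (0.95) and LST8 (0.92), and FES1 most like LST8 and RPN4 (0.92 each).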

How the data were processed

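RNA was compared on 36 dual-channel arrays. The authors deposited a single value for each gene on each array, taken as log2 ratios because the values take both signs with medians near 0. For the base, normalisation, background correction and spot filters, the sources used here give nothing. Per the labels, RNA was labelled with a pair of Oyster dyes, and arrays numbered 2 have the dyes exchanged. Precision is limited by the number of arrays, since intensities were not used.

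Directions were settled from missing spots and are likely, not certain. The 90 genes under -4 in M22 over DBY8268 lacked 27.8% of M22 ethanol spots and 3.7% of DBY8268 ones, and the 92 such genes in YPS163 lacked 33.3% and 6.88%. The 59 genes over 3.5 in ethanol lacked 14.7% of log-phase spots, against 2.13% for the 193 under -2. The hap1D log-phase arrays were turned in sign so that HAP1 is low. Array 3 of YPS163 MATa in ethanol correlated with its group at 0.164 as deposited and at 0.747 when moved up by 1 row, and was set to missing. Every other array of the replicated groups correlated best as deposited. The unreplicated arrays of the time course had no group to be compared with and were not checked for such a shift.

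In limma 3.58.1 (R 4.3.3), lmFit and eBayes fitted 1 mean per group to 26 arrays, a gene being tested with values on at least 2 arrays in each group, and Benjamini-Hochberg adjustment ran over all genes tested in each of 18 comparisons. The scripts were tested on simulated data. Same-numbered ethanol arrays of DBY8268, M22 and YPS163 deviated together (every correlation of deviations between 0.220 and 0.648), so the numbers were taken to pair these groups. Same-numbered arrays also share their dye order, which was not modelled, and whether this made them deviate together was not tested. The blocked values are given beside the calls lost in the fit of these arrays alone. Those of YPS163 MATa and hap1D did so too, on 2 pairs (0.543 and 0.665), but had no block of their own. Deviations of hap1D ran against those of YPS163 (-0.349 to -0.245), so 1 block over all 26 arrays does not model the pairing of the 3 strains. Alternatives were leaving out each array, centring, scaling or quantile normalisation, values on every array, only the groups compared, a robust prior, the block, and array 3 as deposited or moved. The block on the 3 strains alone, the same fit without it and the turned log-phase ratios were added after the data had been seen. The named genes are all 9 members, the mutants' deleted genes, the regulators, the highest and lowest gene of each list in DBY8268 with those called against the list, and the 2 genes most like each member. The other genes named between strains (MDJ1, CDC48, RSP5, SSA3, SSB1, SSE2) and the neighbouring genes were chosen after their values were seen. The members, lists and tests were chosen with earlier results of these data known. RefSeq gene names matched 5830 of the 6295 open reading frames. LTN1 was not matched. Promoter motifs were not analysed here.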

Additional observations from a re-analysis of the deposited data

Results flagged for a closer look

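In these results 2 groups answered ethanol differently by the limma test of the difference itself, with adjusted p under 0.05. M22 responded less than DBY8268 in HSP26 (-1.77), BTN2 (-2.20), CUR1 (-1.96), SIS1 (-1.07), YDJ1 (-1.35), APJ1 (-1.20) and FES1 (-1.56). YPS163 responded less than DBY8268 in HSP26 (-1.51), HSP42 (-1.36), BTN2 (-2.77), CUR1 (-1.60), SIS1 (-1.35), YDJ1 (-0.97), APJ1 (-2.03) and FES1 (-1.86). The same DBY8268 arrays stand in both sets. APJ1 was lower in YPS163 than in M22 (-0.83), and HSP26 (-4.36) and HSP104 (-1.95) were lower in msn2D than in YPS163 MATa. All are on the log2 scale at 30 min.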

How the results depend on the processing

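Counts here are members called. All 9 calls in DBY8268, the BTN2, CUR1, YDJ1 and FES1 differences of M22 and the BTN2, APJ1 and FES1 differences of YPS163 from DBY8268 held under every alternative run. For M22 over DBY8268 in log phase, 2 calls became 4 with arrays scaled to 1 spread, 4 with quantile normalisation and 4 with only the groups compared. In each of these settings 3 were lower and 1, CUR1, was higher. Of all 5107 genes tested, 2344, 2212 and 1957 were called there, in the same order. The 4 calls of YPS163 over DBY8268 in log phase became 0 with only the groups compared, where 191 of 5532 genes were called. For hap1D in log phase 0 calls became 4 when scaled and 5 with quantile normalisation, all higher. Of all 6059 genes tested, 1658 and 1617 were called in those settings. The 8 calls of YPS163 minus DBY8268 became 5 when scaled, 5 with only those groups and 4 when fitted to the 3 strains' ethanol arrays without the block. Fitted to these arrays, M22 minus DBY8268 had 5 of its 7 calls without the replicate block and 5 with it. YPS163 minus DBY8268 had 4 calls without the block and 6 with it, and why the calls were lost was not tested. The replicate block over all 26 arrays changed 2 calls, CUR1 in M22 in log phase (gained, adjusted p = 0.039) and FES1 in YPS163 MATa (lost, adjusted p = 0.067). The APJ1 call of YPS163 minus M22 became 0 calls with array 3 of YPS163 MATa as deposited, when scaled, with quantile normalisation, with only those groups and on the 3 strains without the block. The 2 calls of msn2D minus YPS163 MATa became 0 with array 3 as deposited, 1 when scaled and 1 with quantile normalisation. YPS163 MATa minus YPS163 went from 0 to 1 (HSP104) with array 3 as deposited and 1 with it moved. The indirect ratio of hap1D went from 0 to 1 (APJ1) when scaled and 1 with quantile normalisation. With the log-phase ratios turned, that of YPS163 fell from 9 to 4, and HSP104 reversed to 0.89 in M22 and 1.46 in YPS163. The cause was not tested. Leaving out 1 array at a time gave 9 to 9 calls in DBY8268, 7 to 8 in M22, 6 to 7 in YPS163, 3 to 6 in YPS163 MATa, 7 to 8 in hap1D and 5 to 5 in msn2D. It gave 5 to 8 for M22 minus DBY8268, 6 to 8 for YPS163 minus DBY8268, 0 to 1 for YPS163 minus M22, 1 to 3 for msn2D, 0 to 0 for hap1D and 0 to 1 for YPS163 MATa minus YPS163. In log phase it gave 0 to 3 for M22, 2 to 5 for YPS163 and 0 to 0 for hap1D, and for the indirect ratios 5 to 8, 7 to 9 and 0 to 0. Over all genes, scaling cut the calls of M22 minus DBY8268 from 670 to 103 and of YPS163 minus DBY8268 from 850 to 151. A lone array left in a group is assumed to vary like the other groups.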

Other observations

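Over the ethanol arrays, the 18 genes next to the 9 members in RefSeq order correlated with their neighbour at -0.62 to 0.88, as a description. LST8, a subunit of the TOR complexes, lies next to SIS1 on chromosome XIV, transcribed away from it, and was chosen here after its values were seen. Its DBY8268 arrays at 30 min read 2.50, 2.32 and 2.23, against 1.27, 0.83 and 0.65 in M22 and 0.91, 0.37 and 0.65 in YPS163. The wild strains lay below DBY8268 on every array, by -1.43 ± 0.18 (SE, adjusted p = 1.6e-05, limma) and -1.71 ± 0.18 (adjusted p = 1.2e-06). In log phase LST8 was not called in either strain (0.04 and -0.06), whereas SIS1 was lower in both. Over the ethanol arrays LST8 correlated with SIS1 at 0.88 (25 arrays). At 15 min it read 4.42 in DBY8268, 3.04 in M22 and 2.78 in YPS163, and at 60 min 0.74, 0.62 and -0.05, so that it came down as the members did. Next to HSP42 on chromosome IV, SUP35, which encodes the translation termination factor that forms the PSI prion, fell in DBY8268 (-1.65 ± 0.17, SE, adjusted p = 5.1e-08) while HSP42 rose. AQR1, next to YDJ1, fell by 3.02 there (adjusted p = 3.3e-10).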
